A study of Mus musculus with 12 samples.

Results

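Wild-type (WT) mouse embryos and embryos with 1 loxP-flanked Mib1 allele and the Tnnt2-Cre transgene (Mib1 flox/+ with Tnnt2-Cre/+, called the Cre control here) were compared as ventricles at embryonic stage E15.5. The comparison used 6 of the 12 RNA-seq samples of the series, 3 pools of 4 pairs of ventricles per genotype, and covered every expressed gene: 13964 of 38293 gene identifiers passed the filter on low counts and were tested. The other 6 samples, Mib1 mutant embryos (stop allele R530X over the loxP-flanked allele, with Tnnt2-Cre/+) and triple heterozygotes (Mib1 R530X, an Asxl3 missense allele and the Apcdd1 allele V150I, each over a normal allele, without Cre), entered the same fit, so they bear on the filter and the estimated spread, and served as a second pair of groups that differ by the loxP-flanked allele and Cre. The labels give the Asxl3 allele under 2 different residue numbers, so it is not numbered here. The labels state no strain, and the day for the WT and Cre control pools comes from the extraction protocol. The Cre transgene, the loxP-flanked allele and the breeding line all differ between Cre control and WT, so their parts cannot be told apart.

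Mib1 encodes a ubiquitin ligase that marks Notch ligands on the signal-sending cell, and this lets the ligand be internalised and the receptor on the neighbouring cell be cut and activated. In the developing ventricle, Notch signalling between myocardium and endocardium is known to guide trabeculation and later compaction of the wall. Tnnt2-Cre drives recombination from a cardiac troponin promoter and so acts mainly in cardiomyocytes. A ventricle also holds endocardial, vascular, epicardial, blood and fibroblast cells, in which such a driver leaves the allele intact.

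Between 10240734 and 14774121 estimated reads fell in genes in each of the 6 libraries. On the first principal component, which took 42.2% of the variance, the Cre control pools (-30.6 to -17) and the WT pools (20.6 to 27.2) lay apart. Cre control replicate 1 had almost no Xist, the RNA made by the inactive X chromosome (0.387 CPM, reads scaled to a common library total, against 71.5 to 458 in the other 5 pools), so the pools differ in the sex of their embryos. The sarcomere list summed to 66300 to 68200 CPM in WT and 64900 to 71800 in Cre control, so genes that define heart muscle were abundant in both groups. In bulk RNA, fewer cells of a type and less RNA per cell cannot be told apart.

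Mib1 was lower in every Cre control pool than in every WT pool, but the difference did not pass the test over all genes. Its level was 144.9, 126.1 and 136.4 CPM in the WT pools and 107.9, 107.0 and 101.4 CPM in the Cre control pools. The groups did not overlap, as was so for 19.1% of all tested genes. The log2 fold change was -0.37 ± 0.090 (SE, n = 3 pools per group), with an adjusted p of 0.15 by the quasi-likelihood test of edgeR, adjusted by Benjamini-Hochberg over all 13964 genes. The difference was called without the low-count filter (0.0304), by DESeq2 (0.0418) and when only these 6 libraries were fitted (0.0393). The counts are of whole genes, and the labels do not say which exons the loxP sites flank, so this value does not measure recombination.

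Over all genes 39 were called at an adjusted p under 0.05 (0.279% of those tested), 35 higher (0.251%) and 4 lower (0.0286%) in Cre control. In all 1177 genes had an unadjusted p under 0.05 (8.43%), with 591 higher and 586 lower, and the median log2 fold change of all genes was -0.0014. The called genes were mostly not ordinary coding genes. Of 296 tested pseudogenes 18 were called, all of them higher (6.08% of that class). Of 13018 coding genes 15 were called, 11 higher and 4 lower (0.115%). The remaining calls were 4 of 480 long non-coding RNA genes (0.833%) and 2 of 157 identifiers that the annotation used here lacks (1.27%).

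Of the 39 called genes 20 were near-identical copies of coding genes, and 18 of these had at most 16 reads over the 3 WT pools. The other 2, singled out after their values were seen, were Gm10182 with 167 WT reads and Gm13736 with 165. They were 21.7-fold (95% counting interval 18.6 to 25.5) and 4.21-fold (3.55 to 5.02) higher in Cre control. Gm10182 is identical to the coding gene Hmgn2 over all 273 of its bases, and Gm13736 to Srp9 over all 253. Their reads were thus divided from those of the coding genes by estimation alone, which the intervals do not cover. A processed pseudogene is a copy of a messenger RNA that was reverse transcribed and inserted elsewhere in the genome, without introns. The 20 are such copies by sequence: the 18 pseudogenes and the coding genes Gm10260 and Eno1b, which have at most 2 exons. They match 18 coding genes of at least 3 exons at 94.3 to 100% identity (median 99.4%). Among the windows of 60 bases in each copy, the length of a read, 11.7 to 100% (median 72.5%) occur unchanged in the coding gene. Reads from such windows cannot be placed by their sequence, and the expected counts divide them between copy and coding gene by estimation. Of all 266 tested genes that are copies by the same criteria, 20 were called higher and 0 lower (7.52%), with 55 higher and 7 lower at an unadjusted p under 0.05.

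How little sequence separates some pairs is seen in 3 of them that differ by 1 or 2 bases over the whole copy and have no copy reads in WT. Each stretch below has 61 coding bases, from the mouse GENCODE M21 transcripts on build GRCm38, with the base that differs in capitals at position 31 from the 5′ end. Atp6v0c encodes the proton-conducting subunit of the vacuolar ATPase, and Atp6v0c-ps2 (GRCm38 chr6:37806166-37806226, plus strand) differs from it by T31C in this stretch, the 1 mismatch in 465 aligned bases.
Atp6v0c: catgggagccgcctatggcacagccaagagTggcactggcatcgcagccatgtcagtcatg
Atp6v0c-ps2: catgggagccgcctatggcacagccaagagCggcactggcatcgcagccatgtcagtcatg
Stmn1 encodes the microtubule-destabilising protein stathmin, and Gm11223 (chr4:69925776-69925836, minus strand) differs from it by A31G, the 1 mismatch in 450 bases.
Stmn1: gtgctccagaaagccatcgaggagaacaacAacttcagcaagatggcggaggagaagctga
Gm11223: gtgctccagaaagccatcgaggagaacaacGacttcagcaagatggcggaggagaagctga
Ncoa4 encodes the receptor that delivers ferritin for degradation, and Gm6768 (chr12:119262259-119262319, plus strand) differs from it by A31G here, 1 of 2 mismatches in 1878 bases.
Ncoa4: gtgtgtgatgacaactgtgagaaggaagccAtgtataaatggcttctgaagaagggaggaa
Gm6768: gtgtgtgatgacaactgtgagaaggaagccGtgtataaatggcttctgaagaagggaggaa

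The reads given to these copies varied between Cre control pools. Atp6v0c-ps2 took 10.5, 13.7 and 27.8% of the reads of the pair in the Cre control pools and 0% in each WT pool. Gm11223 took 8.99, 18.7 and 27.3% of the reads it has together with Stmn1 in Cre control, and 0% in each WT pool. Gm6768 took 20.9, 46.9 and 10.5% of the reads of its pair in Cre control and again 0% in WT. Every Cre control pool lay above every WT pool, and the share differed widely between the Cre control pools themselves. Rpl3-ps1, a copy of the ribosomal protein gene Rpl3 with 2 mismatches in 1210 bases, took 34.3, 24.1 and 6.82% in Cre control and at most 0.104% in WT. Over the 20 pairs the copy's share did not overlap between the groups in 20, at 0.13 to 46.9% in Cre control and at most 9.35% in WT. The copies were chosen because they were called higher in these same pools, so this count adds no support. The 19.1% of all tested genes without overlap is of CPM and is no background for a share. The highest WT share belonged to Gm13736, which is identical to the coding gene Srp9 over all 253 of its bases.

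**Figure D1:**
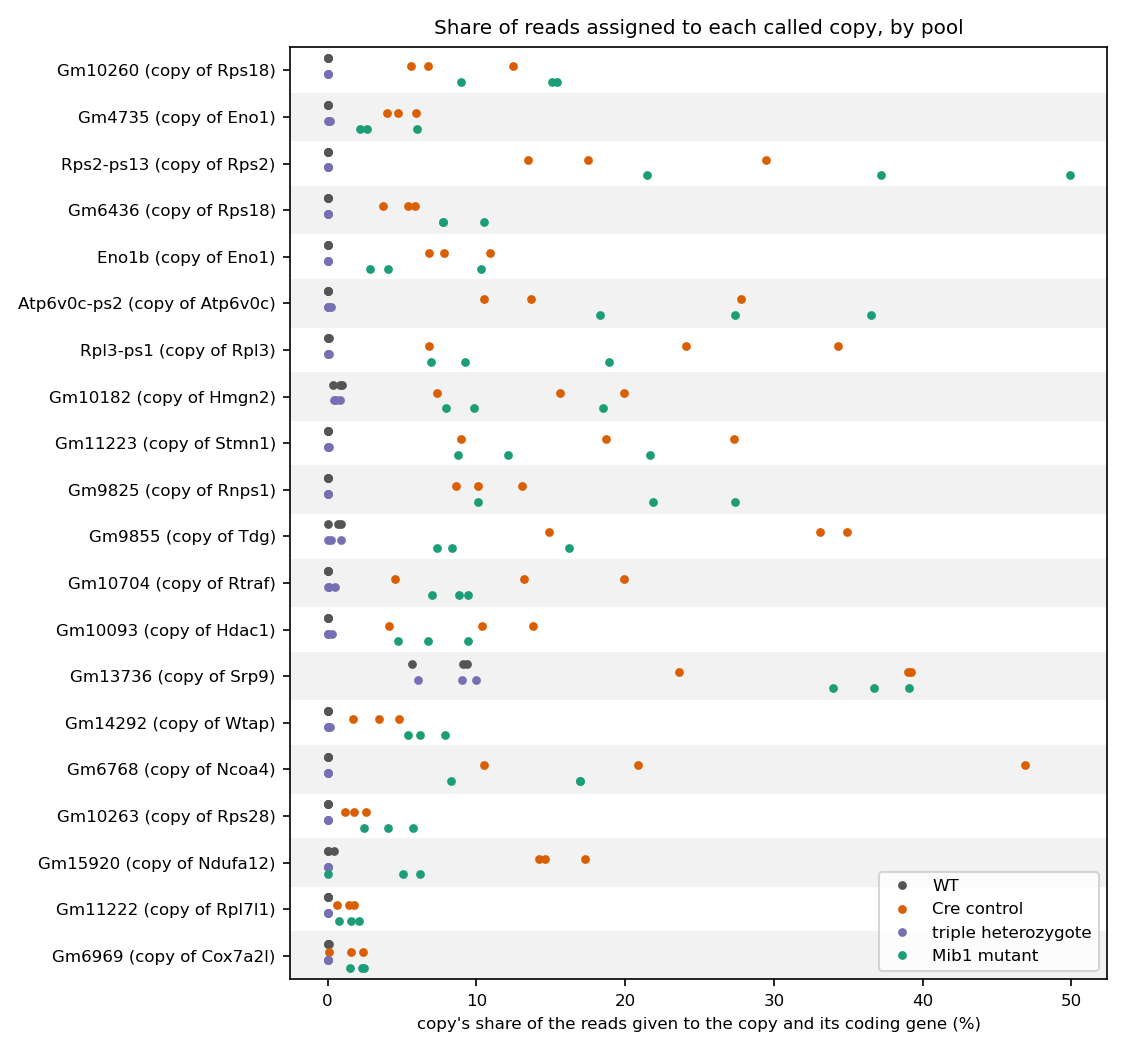
Share of reads assigned to each of the 20 called copies, as a percentage of the reads of the copy and its coding gene, with 1 point per pool and 3 pools for each of the 4 genotypes. The WT and triple heterozygote points lie near 0 for all copies except Gm13736 (at most 9.35% in WT), and the Cre control points lie above the WT points in all 20 rows.

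In levels, the 5 genes with the smallest p were Gm10260, Epb41l4a, Gm4735, Rps2-ps13 and Gm6436, and 4 of these are copies. Rps2-ps13, a copy of the ribosomal protein gene Rps2 on the X chromosome, stood at 48.7, 72.7 and 109.4 CPM in the pools of Cre control. It had 2943 reads there and 0 in WT, which is at least 958-fold higher against a floor of 3 reads over the WT group. Gm6436, a copy of the ribosomal protein gene Rps18, had 723 reads against 0, at least 235-fold higher. The other Rps18 copy among them, Gm10260, had Cre control levels of 20.6, 30.5 and 48.7 CPM, with 1277 reads against 1 in WT, a ratio of 1247 with a 95% counting interval of 223.5 to 49300. Gm4735, a copy of the glycolytic enolase gene Eno1, had 1756 reads against 3, a ratio of 572 (interval 195 to 2775). Of the 20 copies 11 had no read in WT. Intervals and floors cover counting error only, and the division of shared reads adds an uncertainty they do not hold.

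The coding genes from which these copies derive mostly had slightly lower values in Cre control, and 0 of the sums of coding gene and copies was called. Of the 18 coding genes 16 had a negative log2 fold change, with a median of -0.17, and 8 were lower and 0 higher at an unadjusted p under 0.05 (background 4.2% lower and 4.23% higher). Shared reads are divided between copy and coding gene, and the copies were chosen as called higher in these same pools, so these counts add no support. Srp9, which encodes a subunit of the signal recognition particle, was the 1 called among the 18 coding genes. Its level was 53.1, 53.1 and 51.8 CPM in WT and 40.9, 37.2 and 32.7 CPM in Cre control, with no overlap. Its log2 fold change was -0.52 ± 0.088 (SE, adjusted p = 0.0175). The 3 pairs printed above had the same sign, with values of -0.20 ± 0.13 for Atp6v0c, -0.26 ± 0.098 for Stmn1 and -0.54 ± 0.15 for Ncoa4, none of them called. Tdg, a DNA glycosylase with the called copy Gm9855, stood at -0.54 ± 0.11 (SE, adjusted p = 0.0598).

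When each coding gene was summed with its copies before scaling and testing, 0 of the 18 sums was called by edgeR, DESeq2 or limma-voom, and 0 had an unadjusted p under 0.05 by any of them. The smallest adjusted p among the sums was 0.627, 8 of the 18 were negative, and their median log2 fold change was 0.047. Srp9 with Gm13736 came to 57.3 ± 1.16 CPM (SD, n = 3) in WT and 56.1 ± 4.26 in Cre control, and its log2 fold change went from -0.52 to -0.029. Summing was chosen after the values were seen. It left 17 called genes, 14 higher and 3 lower, all 17 among the 39 called without summing.

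**Figure D2:**
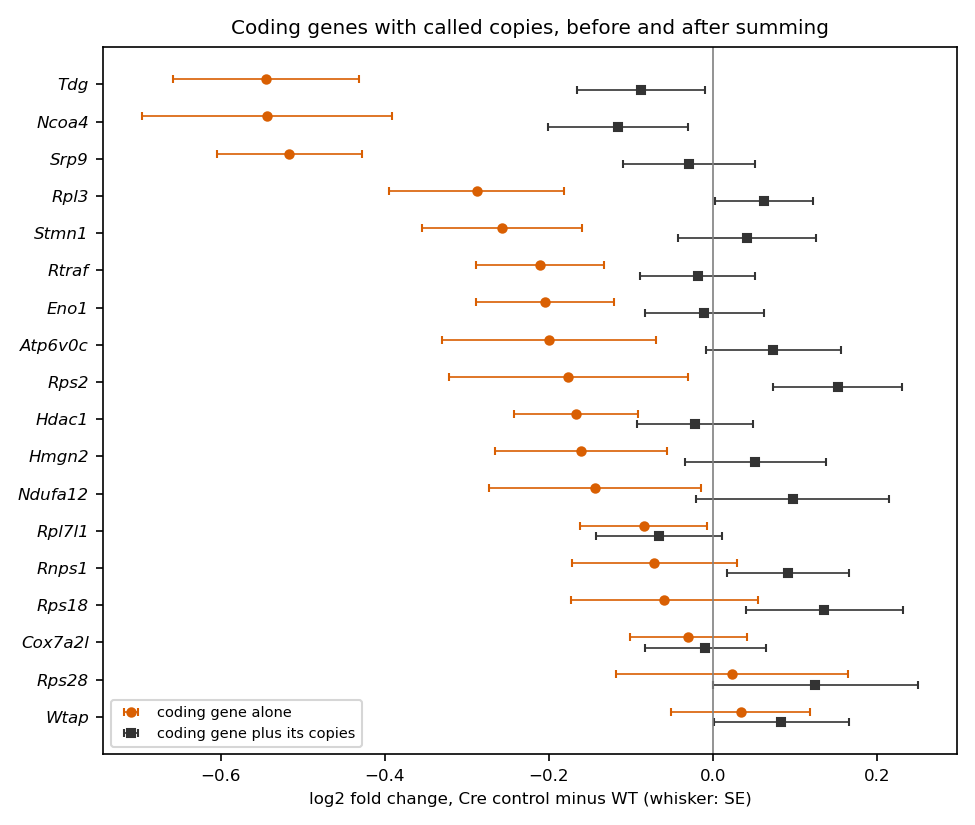
Log2 fold change (Cre control minus WT, whiskers are the SE) of the 18 coding genes with a called copy, alone (circles) and summed with their copies (squares). The coding genes alone reach -0.54 with 16 of 18 below 0, and the sums lie around 0 with a median of 0.047.

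Mmrn1 had reads in every Cre control pool and none in any WT pool. It encodes multimerin, a protein of platelets and endothelium, and lies below the level minimum for named genes, so it was singled out after its values were seen. Mmrn1 had 20, 17 and 14 reads in the Cre control pools and 0 in each of the 3 WT pools, at least 16.6-fold higher against the floor of 3 reads, with an adjusted p of 0.0178. The triple heterozygote pools also had 0 reads, while the Mib1 mutant pools had 23, 10 and 12.

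Among coding genes that are no copies, Epb41l4a had the smallest p. It encodes a band 4.1 protein, of the family that links membrane proteins to the cytoskeleton, and lies on chromosome 18, as Mib1 does. Its level was 11.96, 11.4 and 10.5 CPM in WT and 29.9, 31.4 and 31.7 CPM in Cre control. The groups were far apart against their spread, 11.3 ± 0.72 against 31.0 ± 0.98 CPM (SD, n = 3). Epb41l4a rose by 1.46 ± 0.095 on the log2 scale (SE, adjusted p = 1.05e-06).

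Socs2, an inhibitor of growth hormone and cytokine signalling, stood at 18.98, 21.6 and 20.8 CPM in WT and at 33.1, 34.5 and 35.6 CPM in Cre control. It rose by 0.75 ± 0.10 on the log2 scale (adjusted p = 0.00171) and no pools overlapped. Grik3, a subunit of kainate-type glutamate receptors, stood at 4.85, 4.13 and 3.86 CPM in WT and 9.86, 12.8 and 20.6 CPM in Cre control, a rise of 1.77 ± 0.26 (adjusted p = 0.0037). The Cre control pools of Grik3 were all above WT but spread more widely. Pou3f2, a transcription factor known from neural development, had 76 reads in Cre control and 1 in WT, a ratio of 74.2 with a 95% counting interval of 12.9 to 2970 (adjusted p = 0.00383). Its Cre control pools stood at 3.77, 1.33 and 1.49 CPM, which is a low level. The markers of neurons and neural crest did not move with it: 6 of 14 were expressed enough to be tested and 0 were called, and their summed level was 10.3 to 13 CPM in WT and 11.6 to 15 in Cre control. Socs2, Grik3, Pou3f2 and Epb41l4a kept their calls under every alternative in which they were tested.

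Bhlhe40, a transcriptional repressor of the circadian clock and of hypoxia responses, stood at 40.2, 37.6 and 38.5 CPM in WT and 58.0, 54.5 and 63.2 CPM in Cre control. It rose by 0.60 ± 0.0997 on the log2 scale (adjusted p = 0.0144). Its call was lost without Cre control replicate 3 (0.0974) and without WT replicate 1, 2 or 3 (0.0609, 0.11 and 0.0859). Rnf207, a ubiquitin ligase of the heart that acts on a potassium channel, stood at 41.6, 46.7 and 57.2 CPM in WT and 68.4, 88.8 and 73.4 CPM in Cre control, a rise of 0.66 ± 0.13 (adjusted p = 0.0411). Its call was lost without Cre control replicate 2 or 3 (0.193 and 0.104) and without WT replicate 1 or 2 (0.287 and 0.203). Rex2, a zinc finger gene under the level minimum that was singled out after its values were seen, was also called. Rex2 had 48 reads in Cre control and 1 in WT, a ratio of 46.9 (interval 8.02 to 1890).

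Of the 4 genes that fell, Srp9 is described with its copy above. Rab6b, a small GTPase of Golgi transport known mainly from brain, stood at 9.62, 8.59 and 6.16 CPM in WT and 3.87, 2.39 and 3.72 CPM in Cre control. It fell by 1.28 on the log2 scale (SE 0.23, adjusted p = 0.027). Aqp4, a water channel, stood at 60.9, 54.2 and 50.7 CPM in WT and 39.0, 37.6 and 41.6 CPM in Cre control, a log2 fold change of -0.49 ± 0.086 (adjusted p = 0.0217). It lies on chromosome 18 within 10 Mb of Mib1. Srp54a, the GTPase of the signal recognition particle, stood at 93.9, 104.9 and 91.9 CPM in WT and 68.6, 65.5 and 73.7 CPM in Cre control, a log2 fold change of -0.48 ± 0.080 (adjusted p = 0.0132). Srp54a has near-identical neighbours, so its counts are uncertain, and Srp54c, named after its values were seen, stood at -0.48 ± 0.13 without being called (0.259). All 3 were lower in each Cre control pool than in each WT pool.

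The calls of these genes were not firm. The call of Rab6b was lost without Cre control replicate 1, 2 or 3 (0.0507, 0.135 and 0.0827), without WT replicate 1 or 2 (0.188 and 0.127) and with limma-voom (0.053). That of Aqp4 was lost without Cre control replicate 1, 2 or 3 (0.0889, 0.122 and 0.0553) and without WT replicate 1 or 2 (0.178 and 0.109). That of Srp54a was lost without Cre control replicate 1 or 2 (0.0555 and 0.0739) and without WT replicate 2 (0.11). The call of Srp9 was lost without Cre control replicate 2 or 3 (0.0661 and 0.11) and without WT replicate 1, 2 or 3 (0.0951, 0.11 and 0.0753). In all of these fits the sign stayed negative.

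**Figure D3:**
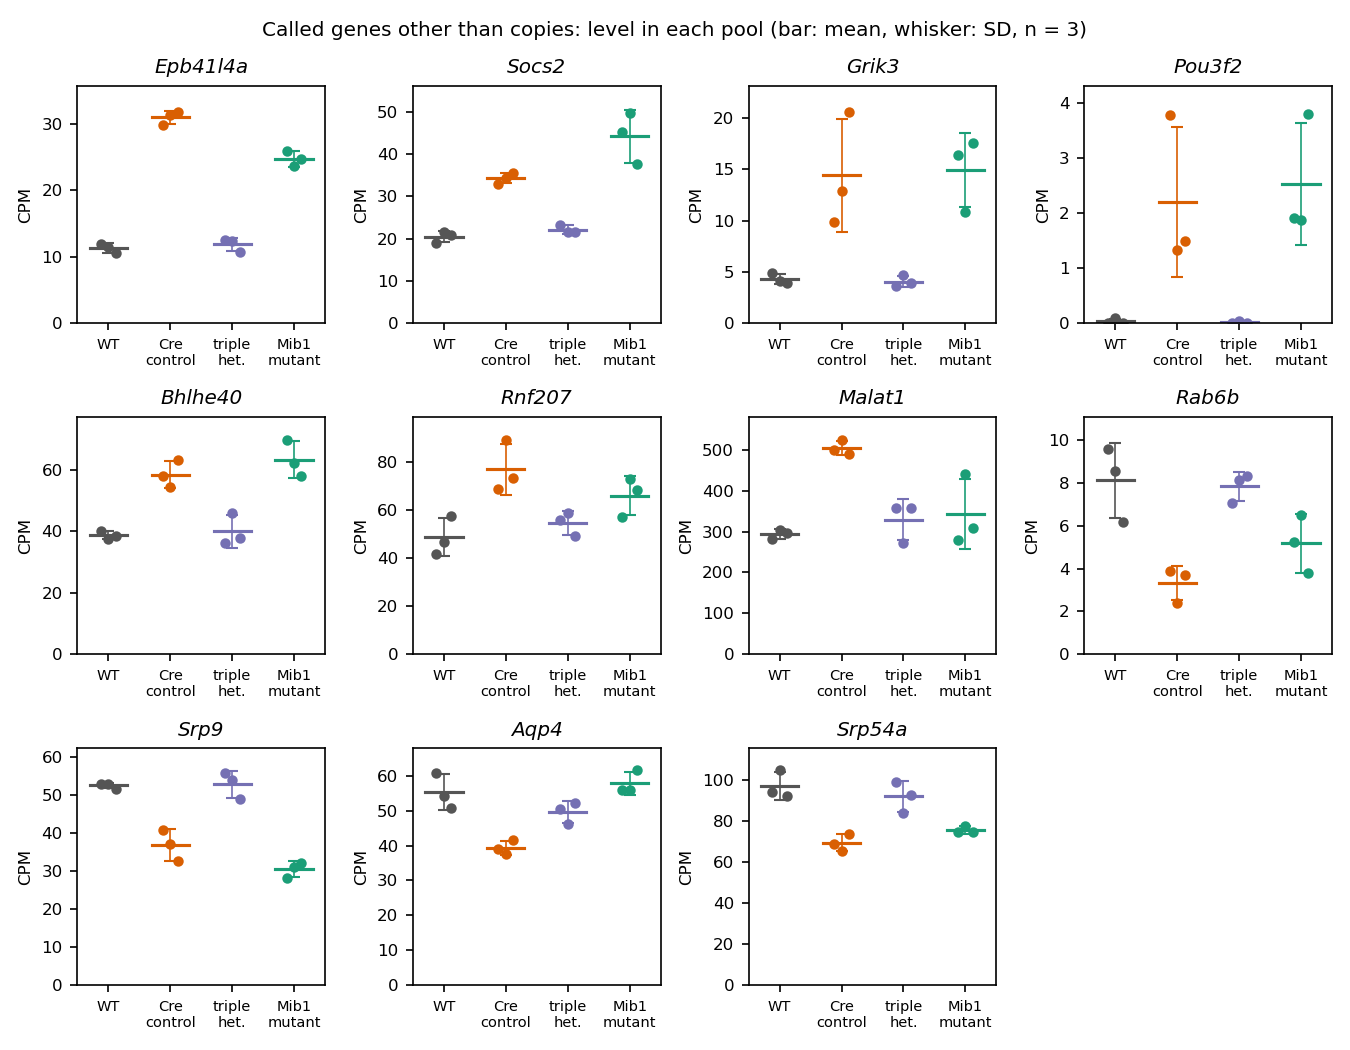
Level in CPM of 11 called genes in each of the 12 pools, with 3 points per genotype, the mean as a bar and the SD as a whisker. The first 7 panels are genes higher in Cre control than in WT and the last 4 are genes that were lower. Between Mib1 mutant and triple heterozygote, Malat1 and Rnf207 overlap and Aqp4 lies higher in Mib1 mutant.

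More long non-coding RNA genes lay higher than lower in Cre control. Of 480 tested, 54 were higher and 10 lower at an unadjusted p under 0.05 (4.23% and 4.2% of all genes), and their median log2 fold change was 0.18. Such genes took 1.12 to 1.16% of all reads in the Cre control pools and 0.984 to 1.04% in the WT pools. Malat1, an abundant RNA of nuclear speckles, stood at 281.1, 305.2 and 298 CPM in WT and 501.4, 525.0 and 490.3 CPM in Cre control. It rose by 0.78 ± 0.14 on the log2 scale (adjusted p = 0.024), but the call was lost in each fit that left out 1 of the 6 pools (0.0705, 0.101 and 0.0784 without Cre control replicates 1, 2 and 3, and 0.18, 0.11 and 0.114 without WT replicates 1, 2 and 3). Neat1, the nuclear RNA of paraspeckles, was looked at after its values were seen and stood at 0.76 ± 0.16 without a call (0.0593). The share of mitochondrial reads, 9.35 to 10.8% in Cre control and 9.71 to 10.2% in WT, overlapped. The share of pseudogene reads did not, at 1.03 to 1.14% against 0.879 to 0.934%. That share also lay above WT in the triple heterozygote pools (0.952 to 1.01%) and the Mib1 mutant pools (0.96 to 1.05%). Whether RNA quality has a part in the level of Malat1 was not tested.

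The other non-coding calls were of little known function. Gm7125, a long non-coding RNA gene on chromosome 15 that was singled out after its values were seen, had 246 reads in Cre control and 0 in WT, at least 80.1-fold higher. Its Cre control pools stood at 2.71, 7.17 and 9.27 CPM. Gm26905 rose from 50.5 ± 2.96 to 77.7 ± 6.48 CPM (SD, n = 3) and Gm10435 from 27.6 ± 3.95 to 39.4 ± 1.62 CPM, both likewise chosen after their values were seen. The 2 called identifiers that the annotation lacks were ENSMUSG00000094114, which rose from 3.25 ± 0.81 to 8.18 ± 1.26 CPM, and ENSMUSG00000089788, which rose from 15.0 ± 2.22 to 26.5 ± 3.70 CPM (SD, n = 3).

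The same 39 genes were read in Mib1 mutant against triple heterozygote, 2 groups that have no library in common with Cre control and WT. There 37 of 39 genes had the same sign (94.9%, exact 95% interval 82.7 to 99.4%), against 45.3% of all 13964 genes. The interval treats genes as independent, though some are copies of the same coding gene and all were read in the same pools. It does not measure the spread between pools. In that comparison 358 genes were called (2.56%), and 29 were called in both, which is 74.4% of the 39 and 8.1% of the 358. All 20 copies are among the 29, so this share is not that of the 19 called genes that are no copies. Of those 19, Rnf207 (edgeR adjusted p = 0.316), Rab6b (0.185), Srp54a (0.0813), Rex2 (0.0619) and Gm26905 (0.384) were not called there. Nor were the 2 identifiers that the annotation lacks (0.125 and 0.561). Epb41l4a rose there by 1.05 ± 0.094 (SE, adjusted p = 1.63e-05), Socs2 by 0.997 ± 0.099 (3.52e-05), Grik3 by 1.86 ± 0.25 (0.000649) and Bhlhe40 by 0.65 ± 0.099 (0.00143). Srp9 fell by 0.79 (SE 0.090, 0.000121). In 19 of the 20 pairs the copy's share was higher in every Mib1 mutant pool than in every triple heterozygote pool. The exception was Gm15920, a copy of Ndufa12, with 0% in 1 Mib1 mutant pool. Gm6768 took at least 8.31% in Mib1 mutant and 0% in triple heterozygote.

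Malat1 was not called in that second comparison, at 0.065 ± 0.14 (0.87), and the test of the difference between the comparisons did not pass for it (0.151). Over all genes 0.516% had a difference between the comparisons at an adjusted p under 0.05, and 2 of the 39 did, Aqp4 and Gm10435. Mib1 itself stood there at -0.39 ± 0.095 (0.0425). Both of these groups carry the Mib1 stop allele. In Mib1 mutant the other Mib1 allele is the loxP-flanked one, which is lost in cells that recombine. The triple heterozygotes keep a normal Mib1 allele and carry 2 missense alleles, so the second comparison differs from the first by more than its libraries.

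**Figure D4:**
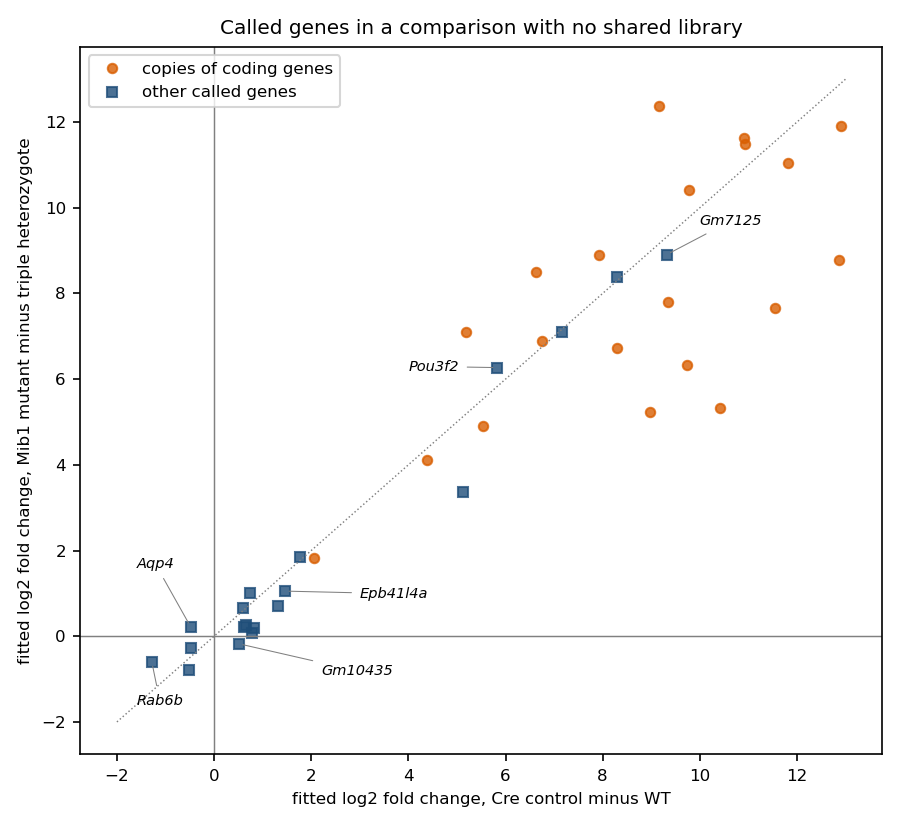
Fitted log2 fold changes of the 39 called genes in Cre control minus WT (x axis) and Mib1 mutant minus triple heterozygote (y axis), with copies as circles, other genes as squares and equal values on the dotted line. Of the 39 points 37 have the same sign on both axes, and the fitted size for genes with 0 reads in WT depends on the prior count and is no measure of fold.

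No gene of the lists made for this tissue and these alleles was called. Across 39 lists with 781 genes, 706 were expressed enough to be tested, and 0 were called in any list by edgeR (0.279% of all genes were). Of the 706, 29 were higher and 41 lower at an unadjusted p under 0.05. By limma-voom 0 were called, and by DESeq2 4 were: Rpl15, Vegfa, Mib1 and Ankrd37. The log2 fold change of Rpl15 ran from 0.17 to 0.40 over the alternatives. Its pseudogene Rpl15-ps3, picked after its values were seen, went the other way, with means of 60.2 CPM in WT and 1.68 in Cre control. The list medians ran from -0.81 to 0.25, and 30 of 39 lay within 0.1 of 0. All results below on lists are counts beside the background of 4.23% of genes higher and 4.2% lower at an unadjusted p under 0.05.

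Of 30 genes of the Notch receptors, ligands and their processing, 1 was higher and 1 lower at an unadjusted p under 0.05, with a median log2 fold change of -0.038. The ligand Jag1 stood at 25.8, 22.99 and 27.8 CPM in WT and 25.5, 18.7 and 23.1 CPM in Cre control, and the groups overlapped (-0.19 ± 0.12, adjusted p = 0.689). The ligand Dll4, the main Notch ligand of endothelium, was at 0.026 ± 0.14 (0.974). The receptor Notch1 was at 0.018 ± 0.10 (0.974). Mib2, the paralogue of Mib1, was at 0.10 ± 0.11 (0.832). The member that was higher was Neurl1a, another ligase of Notch ligands, at a low level of 0.758 to 1.13 CPM in WT and 1.15 to 2.32 in Cre control (adjusted p = 0.475).

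Among 9 tested Notch targets 1 was higher and 1 lower at an unadjusted p under 0.05. Nrarp, a feedback inhibitor of the pathway, stood at 40.5, 46.0 and 42.2 CPM in WT and 50.4, 50.6 and 49.0 CPM in Cre control, which do not overlap, at 0.22 ± 0.095 (0.556). Hey2, the target known for compact myocardium, was at 0.12 ± 0.099 (0.781), Hes1 at 0.17 ± 0.14 (0.79) and Hey1 at -0.11 ± 0.15 (0.869). Bmp10, a growth factor of trabecular and atrial myocardium, was at -0.52 ± 0.24 (0.587), with overlapping pools. The target genes thus lay on both sides of 0, with a median of 0.048. The Notch and target genes other than Nrarp were named after their values were seen.

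Sarcomere genes, which build the contractile apparatus, had a median of 0.0049, with 1 of 28 higher and 4 lower at an unadjusted p under 0.05. Tnnt2, whose promoter drives the transgene, stood at 5196, 5750 and 5701 CPM in WT and 4716, 5830 and 5444 CPM in Cre control, which overlap (-0.058 ± 0.10, 0.904). Xirp2, an actin-binding protein of the intercalated disc, had the smallest p of the list at -0.73 ± 0.25 (0.414). Calcium handling and ion channel genes had 0 higher and 7 lower of 25 at an unadjusted p under 0.05, with a median of -0.059. Casq2, the calcium-binding protein of the sarcoplasmic reticulum, stood at 1065, 973.2 and 988.7 CPM in WT and 853.5, 868.4 and 805.6 CPM in Cre control. These do not overlap, but the value of -0.26 ± 0.082 was not called (0.355). Trabecular genes had 0 higher and 4 lower of 12, with Etv1, a transcription factor of trabeculae, at -0.33 ± 0.12 (0.424). Compact myocardium genes had 0 of 5 in either direction.

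Of 23 p53 targets 1 was higher and 2 lower at an unadjusted p under 0.05, with Ccng1, a cyclin induced by p53, at -0.24 ± 0.087 (0.455). Heat shock and unfolded protein response genes had 1 of 19 higher. Glycolysis and hypoxia genes had 3 of 25 higher and 1 lower, and Ankrd37, a target of the hypoxia-inducible factor, stood at 0.95 ± 0.21 without a call (0.0806). Nuclear genes of the respiratory chain had 0 higher and 2 lower of 50, and cell cycle genes had none in either direction among 18 of G1/S and 20 of G2/M.

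Antigen presentation and interferon genes had the highest list medians, at low levels. Of 19 tested antigen presentation genes 5 were higher and 0 lower at an unadjusted p under 0.05, with a median of 0.25. H2-T23, a nonclassical class I molecule, stood at 2.77, 2.27 and 1.73 CPM in WT and 3.67, 3.54 and 3.52 CPM in Cre control (0.66 ± 0.25, 0.473). The interferon list had a median of 0.19 with 1 of 25 higher. Leukocyte markers lay above 0 in 14 of 17, with a median of 0.15 and 1 higher at an unadjusted p under 0.05. Their summed level overlapped, at 127 to 147 CPM in WT and 137 to 168 in Cre control, and the part of leukocytes in the levels of antigen presentation genes was not tested.

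Among genes known to differ between inbred mouse strains, 31 of 44 were tested, and 2 were higher and 4 lower at an unadjusted p under 0.05. Ifi204, an interferon-inducible gene of a cluster that varies between strains, stood at 1.47, 1.01 and 0.986 CPM in WT and 2.42, 2.83 and 3.11 CPM in Cre control, at 1.27 ± 0.27 without a call (0.073). Ifi202b of the same cluster, singled out after its values were seen, was under the filter. It had 2, 3 and 14 reads in the Cre control pools, 1, 2 and 2 in the Mib1 mutant pools, and 0 in each WT and each triple heterozygote pool.

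**Figure D5:**
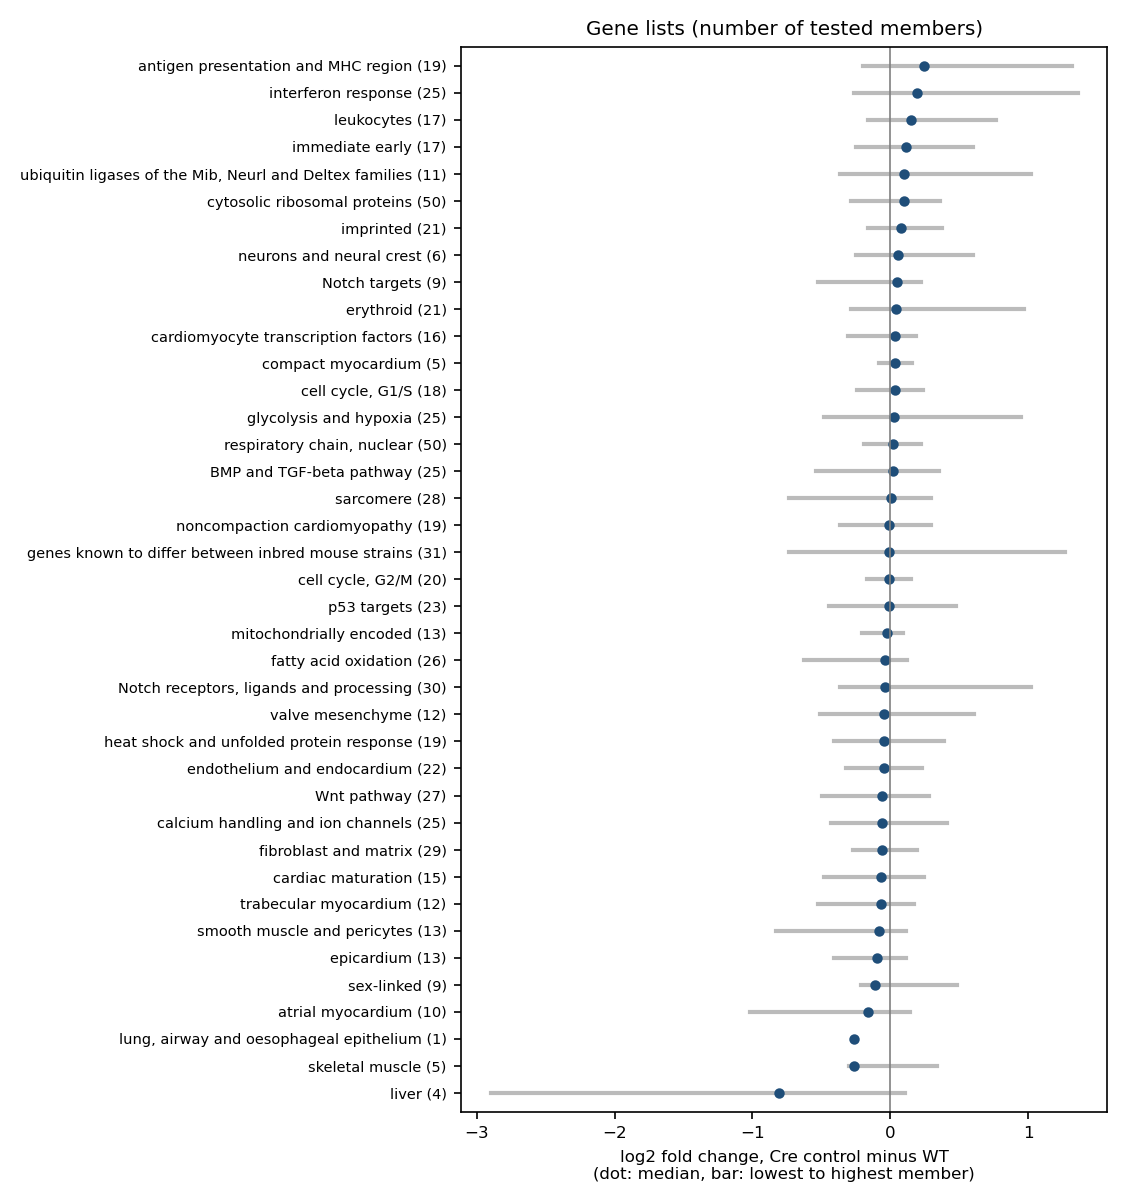
Median (dot) and lowest to highest member (bar) of the log2 fold change, Cre control minus WT, for 39 gene lists, with the number of tested members in brackets. The medians of 30 lists lie within 0.1 of 0, and the lowest, for liver markers, rests on 4 tested genes.

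Markers of other cell types showed few differences. Endothelial and endocardial markers had 1 higher and 1 lower of 22 at an unadjusted p under 0.05, fibroblast and matrix genes 0 of 29, epicardial markers 0 of 13 and valve mesenchyme 1 higher of 12. Smooth muscle and pericyte markers had 0 higher and 3 lower of 13, with Tagln at -0.45 ± 0.15 (0.406). Of the reads of embryonic and adult globins together, the embryonic ones took 0.946 ± 0.457% in Cre control and 0.721 ± 0.154% in WT (SD, n = 3). The pools overlap, and this share does not measure the amount of blood. Of 10 liver markers 4 passed the filter on low counts and 0 were called, and the other 6 had 1 to 31 reads in each group. Afp reached 10.4 CPM in WT replicate 2 against 2.17 and 0.493 in the other WT pools and 0.0966 to 1.22 in Cre control. Of 10 skeletal muscle genes 5 passed the filter and 0 were called, with a summed level of 1110 to 1260 CPM in WT and 1030 to 1440 in Cre control, which overlap. Of the regulators in that list, Myog had 19 reads in each group and Myod1, Myf5 and Pax7 had 0 in both.

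On chromosome 18, which carries Mib1, 3 of 355 tested genes were called: Epb41l4a, Aqp4 and Eno1b (0.279% of all tested genes were called). Eno1b is 1 of the copies, and its coding gene Eno1 summed with copies was not called (log2 fold change -0.010, edgeR adjusted p = 0.981). Of the 355 genes 11.3% had an unadjusted p under 0.05 (background 8.43%). Within 10 Mb of Mib1 the count was 11 of 54 genes at an unadjusted p under 0.05, 5 higher and 6 lower (20.4%), with 1 called, Aqp4. No window of 10 Mb on any chromosome held as many as 3 called genes.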

How the data were processed

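Ventricle RNA from 3 pools per genotype, each of 4 pairs of ventricles, was made into strand-specific libraries, per the labels' protocols, and read from 1 end over 60 bases. Pools hold different ventricles, and whether they had litters in common is not stated, so p-values measure the spread between pools. Build GRCm38 and the tools cutadapt, bcl2fastq 2.20.0.422, limma and RSEM are named per the submitters' processing notes. The authors deposited RSEM expected counts per gene, estimated reads that need not be whole (9.64% of values were not) and that are not scaled for depth. Neither the aligner nor the annotation release is given in the sources used here.

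Columns were matched to samples by the alleles their names abbreviate. The triple heterozygote columns are called mutant without flox or Cre, and their match is an inference from that name. All 12 columns were used, with 0 left out. GENCODE M21 held 36429 of the 38293 identifiers, and 15719 had no read.

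Rounded counts entered edgeR 4.0.16 (R 4.3.3) with TMM scaling, filterByExpr and the two-sided quasi-likelihood F test, in 1 fit of 12 libraries and 4 groups with 8 residual degrees of freedom. The 13964 genes kept held 99.9% of reads. Benjamini-Hochberg adjustment ran over all of these, with a threshold of 0.05, and the SE is the size of the log2 fold change divided by the square root of F. A read is worth 0.0676 to 0.0966 CPM in the 6 libraries compared. No pools were treated as duplicates, since their counts differed beyond sampling noise in each pair of a group (chi-square of 2.07 to 8.05 for each degree of freedom).

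Copies are pseudogenes or coding genes of at most 2 exons that blastn 2.17.0 aligned to a coding gene of at least 3 exons at 90% identity or more over at least 50% of their length. Floors are 3 reads over a group. The procedure was tested on simulated counts drawn independently for each gene. The simulation divided no reads between genes, so it does not bear on the calls of copies.

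The comparison, its gene lists and the copy criteria were chosen with earlier results of these data known. Genes named are Mib1, the 5 called genes with the smallest p, in each direction up to 12 called genes with the largest fold, at least 2 CPM and no overlap (predicted genes and pseudogenes passed over), and per list up to 3 called members or the member with the smallest p. Others are named as chosen after their values were seen. A called gene that this rule names is not reported here. The alternatives comprised DESeq2 1.42.0, limma-voom (limma 3.58.1), size factors by median ratio, fits without erythroid genes, with no filter or at a mean of 2 CPM, a fit of only the compared groups, a replicate block, the sex mix as a covariate, each pool left out and, chosen after seeing the data, copies summed and pseudogenes with predicted genes left out.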

Additional observations from a re-analysis of the deposited data

Results flagged for a closer look

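Of the 39 genes called between Cre control and WT, 2 had an adjusted p under 0.05 in edgeR's test of the difference between that contrast and Mib1 mutant minus triple heterozygote (0.516% of all tested genes did), and both had opposite signs in the 2 contrasts. Aqp4, the water channel on chromosome 18, stood at -0.49 ± 0.086 (SE) between Cre control and WT and at 0.23 ± 0.085 between Mib1 mutant and triple heterozygote. The difference was -0.71 on the log2 scale (adjusted p = 0.0152). In the second pair of groups the Mib1 mutant pools had 55.9, 55.9 and 61.7 CPM and the triple heterozygote pools 50.5, 46.1 and 52.3 CPM, with no overlap. Gm10435, an antisense gene, stood at 0.51 ± 0.097 in the first contrast and -0.18 ± 0.099 in the second, a difference of 0.68 (adjusted p = 0.0408). Its pools held 41.0, 39.4 and 37.7 CPM in Cre control and 24.3, 26.6 and 32.0 CPM in WT. Between Mib1 mutant (25.6, 27.0 and 26.2 CPM) and triple heterozygote (27.7, 32.0 and 28.9 CPM) it was lower in every Mib1 mutant pool. The library kit keeps the strand, but whether the counting used it is not given in the sources used here.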

How the results depend on the processing

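The count of genes called between Cre control and WT (39) became 144 without the low-count filter, 83 by DESeq2, 68 in a fit of the 2 groups, 59 with the replicate block, 17 with copies summed and 15 without pseudogenes and predicted genes, and 23 to 42 with 1 pool left out (23 without WT replicate 1 and 25 without WT replicate 2). The main fit did not take the replicate numbers as pairs. Deviations of equally numbered WT and Cre control pools correlated at 0.0624, 0.0597 and -0.089. Over all genes such values cannot show whether those pools had a litter or batch in common. With the replicate block Mib1 stood at -0.36 (adjusted p = 0.0625). Mib1 was called with no filter (-0.36), with DESeq2 (-0.36) and in the fit of the 2 groups (-0.36), and lay between -0.42 and -0.32 with 1 pool left out. The calls between Mib1 mutant and triple heterozygote (358) became 656 with no filter, 557 with DESeq2, 177 in the fit of the 2 groups and 210 to 783 with 1 pool left out. The share with the same sign in both contrasts (94.9%) became 77.1% with no filter and 84.8 to 100% with 1 pool left out. Krt14, not called, was the 1 named gene that reversed, at 0.10 without WT replicate 2, with a range of -0.54 to 0.10 over the fits with 1 pool left out. The cause of these moves was not tested. Of 884 values of named genes under the alternatives 837 kept their side of the threshold and sign, 38 lost a call, 8 gained one and 1 reversed. With copies summed fewer genes were tested (13706 in place of 13964). Genes at a few reads, such as Ifi202b, are limited by depth, at 0.0676 to 0.0966 CPM a read.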

Other observations

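The genes below lay just short of a call. They were chosen after their values were seen, and no test is read from them beyond their own. Tnni3k, a kinase of heart muscle, stood at -0.38 ± 0.079 (SE) between Cre control and WT (edgeR adjusted p = 0.0593) and at -0.45 in Mib1 mutant minus triple heterozygote, where it was called (0.00537). Fzd8, a Wnt receptor on chromosome 18, stood at -0.53 ± 0.11 (0.0541) and at -0.46 in the second contrast (0.0294). Zfp990, a zinc finger gene on the same chromosome as Rex2, had under 0.25 CPM in each WT pool and 1.55, 0.974 and 1.01 CPM in the Cre control pools (0.0505).

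Another 4 genes, picked after their values were seen and belonging to no list made here, had higher values in Cre control without being called. Clk1, a kinase of splicing factors, stood at 57.6, 61.6 and 63.1 CPM in WT and 77.3, 92.1 and 91.1 CPM in Cre control, at 0.52 ± 0.11 (0.0593). The cyclin Ccnl2 stood at 0.42 ± 0.085 (0.0527), Pnisr at 0.48 ± 0.11 (0.1) and Luc7l at 0.30 ± 0.067 (0.0824). In Mib1 mutant minus triple heterozygote these 4 were at 0.14, 0.19, 0.038 and 0.19, none of them called.

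Rpl15-ps3, a pseudogene of the ribosomal protein gene Rpl15, had reads in WT and few in Cre control, the opposite of the called copies, without being called (0.0505). It stood at 59.4, 42.3 and 79.0 CPM in the WT pools and at 5.03, 0 and 0 CPM in the pools of Cre control, with no overlap. The triple heterozygote pools, at 2.36, 0 and 0 CPM, lay near Cre control, and the Mib1 mutant pools spread from 0 to 33.4 CPM. Rpl15 itself stood at 0.34 ± 0.088 (0.165).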
